A study of Mus musculus with 12 samples.

Results

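The clustered protocadherins are cell adhesion genes that sit in 3 tandem clusters, named alpha, beta and gamma, on mouse chromosome 18. Members were the gene symbols that begin with Pcdha, Pcdhb, Pcdhga, Pcdhgb or Pcdhgc (with Pcdhac for the C-type alpha genes) and end in a number. By this rule the 20-week counts table listed 53 members among 23829 genes, of which 10 were alpha, 22 beta and 21 gamma. The 28-week table listed 52 members among 23777 genes, of which 9 were alpha, 22 beta and 21 gamma. RefSeq annotation of GRCm38.p6 places 14 alpha genes at chr18:36930285-37188897, 22 beta genes at chr18:37264998-37521419 and 22 gamma genes at chr18:37661775-37841873, all on the plus strand. Pcdha4, Pcdha6, Pcdha7, Pcdhac1 and Pcdhgb8 were not analysed here at either age, nor was Pcdha1 at 28 weeks.

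Each clustered protocadherin is a transmembrane protein with cadherin repeats outside the cell, and matching isoforms on opposed membranes bind each other. In neurons, promoter choice gives single cells different sets of isoforms, which serve self-recognition of neurites. Alpha and gamma transcripts join 1 variable first exon to constant exons shared by the whole cluster, whereas beta genes are single-exon genes with no constant part. CTCF and cohesin, DNA methylation and the chromatin proteins Smchd1 and Setdb1 are known to control the promoters in mice, and Nsd2 deposits H3K36 dimethylation, a mark that helps recruit de novo DNA methyltransferases.

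RNA was from primary podocytes, which wrap the glomerular capillaries of the kidney as part of its filter. The mice had been made diabetic with a high-fat diet and streptozotocin (HFD/STZ). Knockout libraries (KO) were from Cre+/Nsd2fl/fl mice and control libraries (Con) from Cre-/Nsd2fl/fl mice. Both genotypes carried the floxed Nsd2 alleles, and both were HFD/STZ-treated. Mice were 20 or 28 weeks old, and each of the 4 groups held 3 libraries. The labels call the deletion podocyte-specific, do not name the promoter that drives Cre, and place all 12 libraries in batch 1. Nothing in them ties a library to a single mouse, so each p-value reflects library-to-library spread, which may be technical.

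Library totals lay between 31405349 and 38989180 counts. Nsd2, the targeted gene, had 51.7, 34.1 and 45.0 CPM (counts scaled by library size with TMM factors) in the 20-week knockout libraries, against 94.2, 66.6 and 79.0 CPM in the control libraries. At 28 weeks it had 35.2, 35.2 and 42.9 CPM in knockout libraries, against 87.2, 77.6 and 80.1 CPM in controls. The groups did not overlap at either age, and Nsd2 fell by 0.88 on the log2 scale at 20 weeks (edgeR adjusted p = 0.0402) and by 1.11 at 28 weeks (adjusted p = 0.00431). The 20-week call was lost in 5 of the 6 fits that left out 1 library, all except that without knockout library 1, with adjusted p between 0.0274 and 0.164 over the 6. Control libraries 2 and 3 at 28 weeks differed by a biological coefficient of variation of 0.0472, against 0.219 to 0.414 for the other 11 pairs within groups. With the counts of that pair summed as 1 library, the 28-week genes called numbered 1299 in place of 3183. Of 10 podocyte markers all were detected, but nephrin (Nphs1), which defines the slit diaphragm, was low, at 0.914 to 7.35 CPM in knockout libraries and 1.45 to 15.2 CPM in control libraries.

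The 3 clusters differed in level. Alpha reads were at the limit of detection, with 5, 20 and 19 reads over the whole cluster in the 20-week knockout libraries, against 1, 10 and 14 reads in the control libraries. Beta members together had 1175, 1101 and 1495 reads in 20-week knockout libraries, against 477, 318 and 572 reads in controls. Gamma members together had 3397, 3765 and 2692 reads in 20-week knockout libraries, against 2068, 1722 and 2236 reads in controls. Per length, Pcdhgc3 was the highest member in both groups at both ages. It averaged 6.26 FPKM (fragments scaled by gene length and depth) in knockout and 5.34 FPKM in control libraries at 20 weeks, and 4.43 FPKM in knockout and 4.08 FPKM in control libraries at 28 weeks. Pcdhb17 was the highest beta member, with 2.53 FPKM in knockout and 0.947 FPKM in control libraries at 20 weeks. Reads of the beta cluster were concentrated: 3 members held 50% of them in every library except knockout library 1 at 28 weeks, where it took 4. Pcdhb17 led the beta cluster in 10 libraries and Pcdhb22 in knockout library 2 of each age.

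How reads were divided among genes matters for alpha and gamma. The deposited FPKM imply lengths of 5242 to 5719 bases for alpha genes and 4629 to 5080 bases for gamma genes, which include the shared constant exons. In GENCODE M21, a median of 59.7% of the 50-base windows of an alpha gene and 44.4% of a gamma gene also occur in another gene, against 4.46% for a beta gene. The labels do not give the counting rule, so the split of constant-exon reads between gamma genes is uncertain. Pcdhgc5 had 0 reads in control library 2 at 20 weeks, where Pcdhgc3 had 782, so reads of the shared exons were not assigned to every gamma gene. Beta values are less touched by this, with at most 11.99% of windows shared. Among the beta genes called at either age the share ran from 1.80% for Pcdhb13 to 11.28% for Pcdhb21.

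The first comparison asks how loss of Nsd2 in podocytes went with clustered protocadherin expression at 20 weeks. Some beta and gamma genes rose in knockout libraries and no member fell. Of 35 members with enough counts to be tested, 12 rose and 0 fell, while of all 14853 tested genes 9.92% were called, 4.79% as risen and 5.13% as fallen. The 12 were 6 of 14 tested beta genes and 6 of 21 tested gamma genes, and 23 tested members did not pass. The median log2 fold change was 1.49 over tested beta genes (0.80 to 3.55) and 1.04 over tested gamma genes (0.02 to 2.11), beside 0.01 over all tested genes. All 3 knockout libraries lay above all 3 controls for 12 beta and 15 gamma genes, a pattern that 15.5% of all tested genes showed, and below all controls for 0 members, beside 16.7% of all tested genes. A filter on low counts favours genes that are high in one group, so direction by mean CPM, a weaker criterion, was counted without it. By mean CPM, 21 of the 22 listed beta genes and 21 of the 21 listed gamma genes were higher in knockout libraries. All listed gamma genes had passed the filter, so only the beta count adds genes. Of all 14853 tested genes, 7594 had a positive log2 fold change, and the share over all listed genes was not counted.

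**Figure D1:**
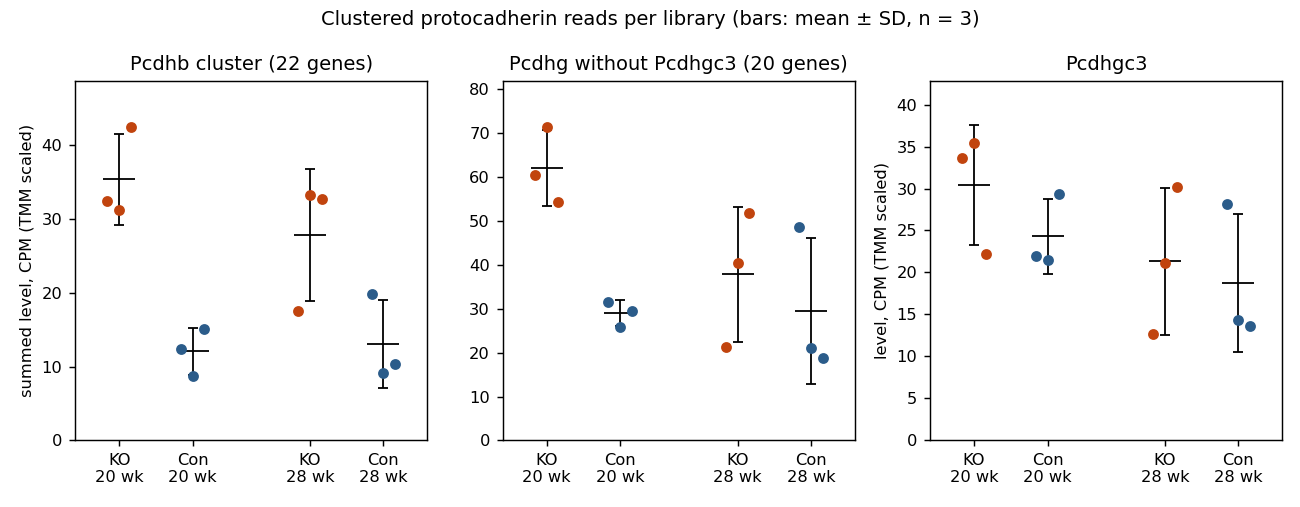
Level in CPM of the 22 beta genes summed, of the 20 gamma genes other than Pcdhgc3 summed, and of Pcdhgc3 alone, with 1 point per library, knockout in orange and control in blue. Black bars are the mean ± SD of 3 libraries. Beta sums at 20 weeks lie between 31.2 and 42.5 CPM in knockout libraries and between 8.76 and 15.1 CPM in controls, while Pcdhgc3 overlaps between the groups at both ages.

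Summed over the beta cluster, the 20-week level was 35.4 ± 6.17 CPM in knockout and 12.1 ± 3.17 CPM in control libraries (SD, n = 3 each). Gamma genes other than Pcdhgc3 summed to 62.1 ± 8.69 CPM in knockout and 29.0 ± 2.89 CPM in control libraries. Neither sum overlapped between the groups. The plot of summed levels by library shows both gaps, and shows that Pcdhgc3 did not share them.

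Among the beta genes, which encode adhesion receptors without the constant cytoplasmic tail, Pcdhb14 had the lowest p. It had 2.24, 2.67 and 2.99 CPM in the knockout libraries, against 0.311, 0.441 and 0.553 CPM in the control libraries. The groups lay far apart, with the lowest knockout library above every control. The difference was 6.01-fold (log2 2.59, SE 0.38, 95% interval 1.72 to 3.46, edgeR adjusted p = 0.00723). Pcdhb14 was also the one member called whichever of the 6 libraries was left out, with adjusted p between 0.00619 and 0.0378.

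Of the more abundant beta genes, Pcdhb22, Pcdhb17 and Pcdhb20 also rose. Pcdhb22 had 6.67, 6.92 and 8.79 CPM in knockout libraries, against 1.84, 1.16 and 2.74 CPM in controls, and rose 3.89-fold (log2 1.96, SE 0.36, adjusted p = 0.0151). Pcdhb17 had 8.91, 6.73 and 10.3 CPM in knockout libraries, against 2.88, 2.40 and 3.85 CPM in controls, and rose 2.84-fold (log2 1.5, SE 0.29, adjusted p = 0.0190). Pcdhb20 had 2.27, 2.92 and 3.70 CPM in knockout libraries, against 1.27, 0.523 and 1.08 CPM in controls, and rose 3.08-fold (log2 1.62, SE 0.42, adjusted p = 0.0482). In each of these 3 genes every knockout library was above every control.

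Pcdhb9 and Pcdhb13 had the largest fold changes with Pcdhb14, but few reads. Pcdhb9 had 16, 28 and 15 reads in knockout libraries, against 0, 1 and 4 reads in controls, and rose by 3.55 on the log2 scale (SE 0.83, adjusted p = 0.0349). Pcdhb13 had 29, 26 and 15 reads in knockout libraries, against 7, 3 and 2 reads in controls, and rose by 2.59 (SE 0.59, adjusted p = 0.0312). The groups did not overlap in either gene, but both passed the count filter through their knockout libraries alone, which favours a rise. Both were also called without a filter. The size of both changes is loosely set because the control counts are so low.

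Beta genes that did not pass lay on the same side. Pcdhb16, the third most abundant by CPM in the 20-week knockout libraries, had 4.26, 2.75 and 5.06 CPM in knockout libraries, against 1.58, 1.24 and 2.29 CPM in controls (log2 1.24, adjusted p = 0.0764). Pcdhb21 had 0.858, 0.709 and 1.08 CPM in knockout libraries, against 0.233, 0.331 and 0.369 CPM in controls (log2 1.5, adjusted p = 0.0614). In both the groups did not overlap. The log2 fold changes of Pcdhb18 and Pcdhb19 were 1.06 (adjusted p = 0.144) and 1.14 (adjusted p = 0.105), again with no overlap. Pcdhb7 had 0.80 (adjusted p = 0.363) and Pcdhb11 1.28 (adjusted p = 0.295), with control library 1 of Pcdhb11 inside the knockout range. The 8 beta genes that were not tested never exceeded 15 reads in a library, and Pcdhb1 was the only beta gene lower in knockout libraries by mean, with 1 read in all against 11 in controls.

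**Figure D2:**
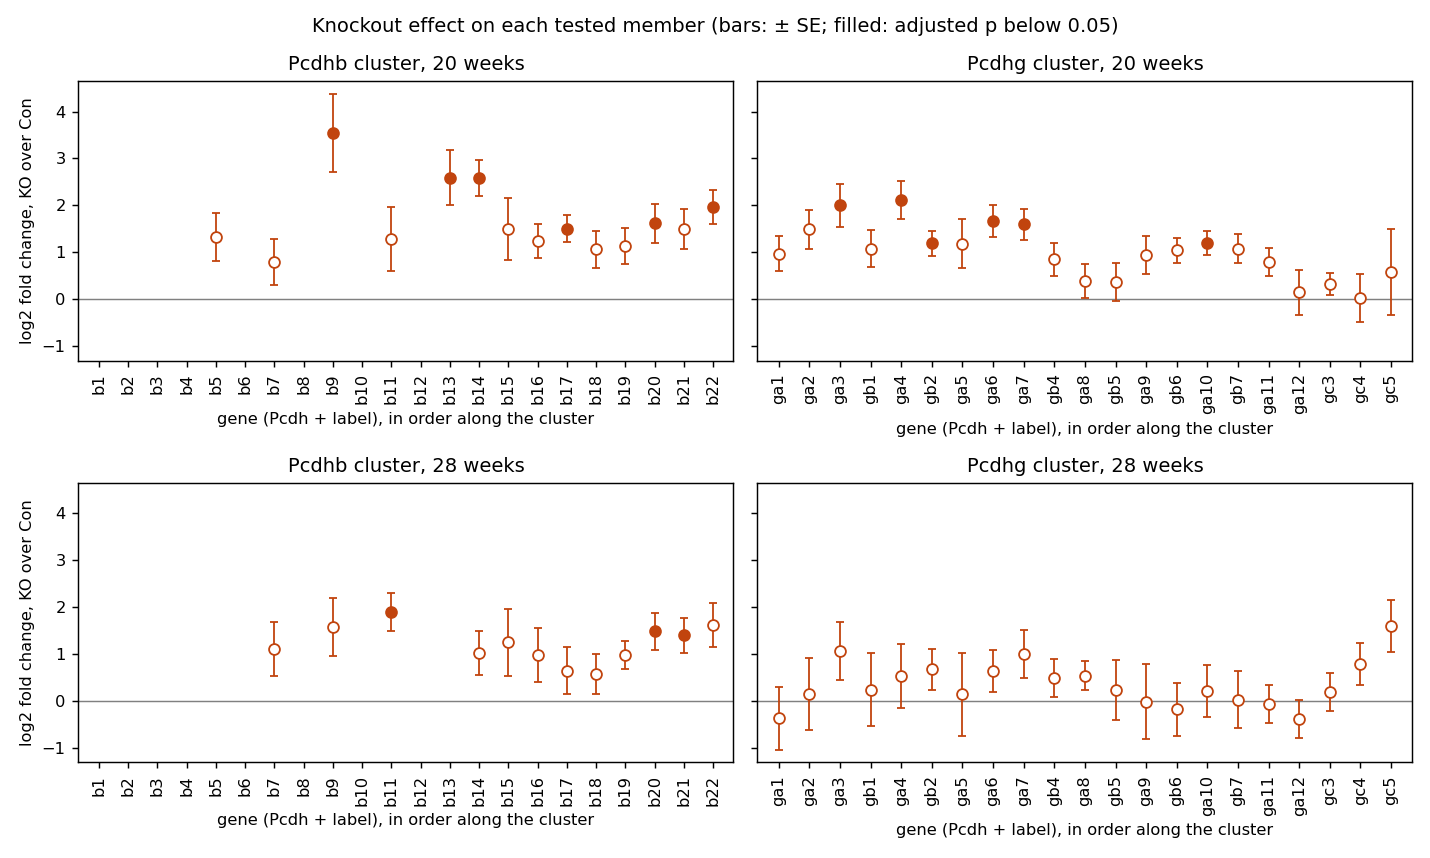
Log2 fold change, knockout over control, of each tested beta and gamma gene in its order along the cluster, with bars of ± SE, at 20 weeks (top) and 28 weeks (bottom). Filled points passed the adjusted p of 0.05, and gene labels with no point were not tested. At 20 weeks all 35 points are above 0, while at 28 weeks 28 of 33 are.

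Among the gamma genes, whose variable exons are spliced to a shared tail that binds the kinases Ptk2 and Ptk2b, the A and B subfamilies carried the difference. The 12 Pcdhga genes summed to 35.9, 40.0 and 30.0 CPM in knockout libraries, against 16.8, 12.7 and 15.2 CPM in controls. The 6 Pcdhgb genes summed to 23.8, 30.5 and 23.6 CPM in knockout libraries, against 13.9, 13.0 and 13.5 CPM in controls. The 3 C-type genes summed to 34.3, 36.3 and 22.9 CPM in knockout libraries, against 22.9, 21.7 and 30.3 CPM in controls, so that only this subfamily overlapped between the groups.

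Pcdhga4 had 3.13, 3.12 and 2.50 CPM in knockout libraries, against 0.415, 0.606 and 1.00 CPM in controls, and rose 4.31-fold (log2 2.11, SE 0.41, adjusted p = 0.0183). Pcdhga3 had 2.52, 2.36 and 1.56 CPM in knockout libraries, against 0.285, 0.689 and 0.632 CPM in controls, and rose 3.99-fold (log2 2.00, SE 0.45, adjusted p = 0.0298). These genes, which Pcdhgb1 separates on the chromosome, had the largest log2 fold changes of the gamma cluster, and neither overlapped between the groups. Pcdhga6 had 2.79, 2.07 and 1.88 CPM in knockout libraries, against 0.70, 0.744 and 0.685 CPM in controls, and rose by 1.66 on the log2 scale (adjusted p = 0.0226). Pcdhga7 had 6.22, 7.66 and 5.37 CPM in knockout libraries, against 2.44, 1.38 and 2.53 CPM in controls, and rose by 1.60 (adjusted p = 0.0223). Control libraries were tightly grouped for Pcdhga6 and lowest in library 2 for Pcdhga7.

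Pcdhgb2 had 5.12, 7.43 and 6.14 CPM in knockout libraries, against 2.57, 2.62 and 3.03 CPM in controls, and rose 2.27-fold (log2 1.19, SE 0.27, adjusted p = 0.0308). Pcdhga10, the most abundant of the A and B genes, had 8.55, 9.14 and 6.80 CPM in knockout libraries, against 3.73, 3.11 and 3.79 CPM in controls, and rose 2.30-fold (log2 1.20, SE 0.25, adjusted p = 0.0226). In both, knockout libraries stood above all controls. Pcdhgb6 just missed, with 5.23, 7.12 and 4.72 CPM in knockout libraries, against 2.59, 2.92 and 2.79 CPM in controls (log2 1.04, adjusted p = 0.0514), again without overlap. Pcdhgb4 had a log2 fold change of 0.85 (adjusted p = 0.172) and Pcdhga1 of 0.97 (adjusted p = 0.144).

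The gamma genes whose groups overlapped at 20 weeks were the 3 C-type genes with Pcdhga8, Pcdhgb5 and Pcdhga12 of the A and B subfamilies. Pcdhgc3, which in cultured cells binds Axin1 and dampens Wnt signalling, had 33.6, 35.4 and 22.2 CPM in knockout libraries, against 22, 21.5 and 29.4 CPM in controls (log2 0.32, 95% interval -0.21 to 0.85, adjusted p = 0.453). Its groups overlapped, with knockout library 3 among the controls. Pcdhgc4, needed for interneuron survival in mice, had 0.332, 0.341 and 0.427 CPM in knockout libraries, against 0.337, 0.193 and 0.553 CPM in controls (log2 0.02, adjusted p = 0.991). Pcdhgc5 had 13, 22 and 11 reads in knockout libraries, against 20, 0 and 13 reads in controls (log2 0.58, adjusted p = 0.765). The log2 fold changes were 0.39 for Pcdhga8 (adjusted p = 0.575), 0.37 for Pcdhgb5 (adjusted p = 0.65) and 0.15 for Pcdhga12 (adjusted p = 0.894), so these 3 A and B genes lay below Pcdhgc5. The direction of Pcdhgc4 turned, to -0.01, in the model of all 12 libraries and with limma on FPKM.

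The make-up of the gamma reads followed from this. Pcdhgc3 held 35.7%, 33.1% and 29.0% of gamma reads in the 20-week knockout libraries, against 41.1%, 45.4% and 49.9% in the control libraries. The highest knockout share, with an exact 95% binomial interval of 34.1 to 37.4%, was below the lowest control share, with 38.9 to 43.2%. These intervals cover counting error only. At 28 weeks the shares were 37.3%, 34.3% and 36.9% in knockout libraries, against 36.7%, 40.5% and 42.0% in controls, and overlapped.

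**Figure D3:**
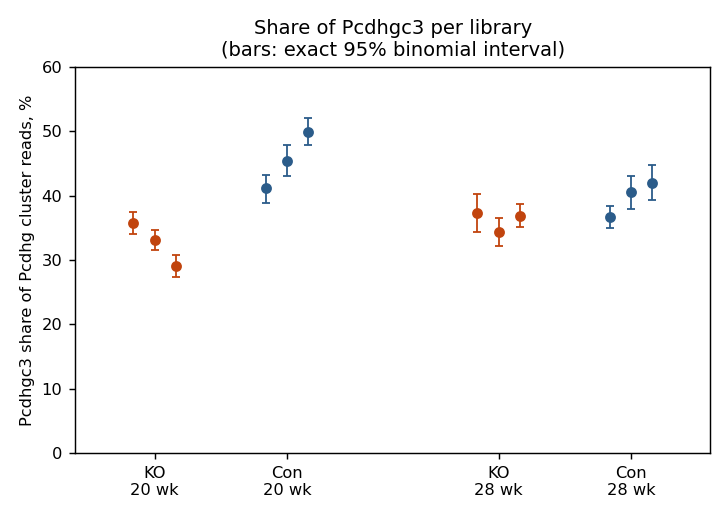
Share of Pcdhgc3 among all gamma cluster reads, in percent, with 1 point per library and bars for the exact 95% binomial interval. The 20-week knockout libraries lie between 29.0% and 35.7%, below the controls at 41.1% to 49.9%, while the 28-week groups overlap.

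Alpha genes were too low to test. Pcdha10 had 1, 4 and 7 reads in 20-week knockout libraries, against 0, 4 and 1 reads in controls, and Pcdha12 had 1, 4 and 7 reads in knockout libraries, against 1, 0 and 2 reads in controls. Pcdha9 had 4 reads over the knockout libraries and 7 over the controls. Pcdhac2, the C-type alpha gene that guides serotonergic axons in mice, had 1, 5 and 1 reads in knockout libraries, against 0, 0 and 1 reads in controls. With 3 reads as the limit that a count of 0 allows (0.0795 to 0.0841 CPM at 20 weeks), no direction could be read for this cluster. By mean CPM, 7 of the 10 listed alpha genes were higher in knockout libraries.

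The 20-week calls rested on all libraries together. Without control library 1 the test called 1 of 36 tested members, beside 517 of all 15184 tested genes. Without control library 2 it called 2 of 37 members (602 of 15260 genes), and without control library 3 it called 6 of 37 (1061 of 15112). Without knockout library 2 it called 3 of 35 members (663 of 15380 genes), and without knockout library 3 it called 2 of 36 (553 of 15365). Without knockout library 1 it called 11 of 37 members (2023 of 15286 genes). Called genes as a whole were thus fewer than the 1473 of the full fit, except without knockout library 1. The median log2 fold changes moved less over these 6 fits, from 1.28 to 1.55 for beta genes and from 0.89 to 1.16 for gamma genes.

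Several lists of cell type markers moved with the knockout at 20 weeks, when 4.79% of all tested genes rose and 5.13% fell. Of 10 podocyte markers 7 rose, and they summed to 3330, 4010 and 4410 CPM in knockout libraries, against 2170, 1580 and 1390 CPM in controls. Of 10 muscle and pericyte markers 9 rose (10000 to 13900 CPM in knockout and 4470 to 4990 CPM in control libraries), and of 6 fibroblast markers 2 rose (2570 to 3910 CPM in knockout and 436 to 1570 CPM in control libraries). Of 8 markers of other epithelium 3 fell, and they summed to 1970, 372 and 288 CPM in knockout libraries, against 2580, 5330 and 4040 CPM in controls. Leukocyte markers, of which 0 of 6 were called, summed to 241 to 425 CPM in knockout and 67.2 to 333 CPM in control libraries. The sum does not stand for the list, as only 2 of the 6 had a positive log2 fold change (median -0.8). Neuronal markers were low, with a sum of 3.50 to 8.71 CPM in knockout and 5.03 to 13.8 CPM in control libraries, and 4 of the 6 were too low to test. Of 5 glial markers, which summed to 21.0, 6.53 and 4.86 CPM in knockout libraries, against 65.2, 40.8 and 49.2 CPM in controls, Mbp fell, while Sox10, which defines glia, had at most 0.0851 CPM in any library. Endothelial markers, with 0 of 6 called, summed to 48.2 to 96.7 CPM in knockout and 56.5 to 68.3 CPM in control libraries. The part of these cell types in the protocadherin values was not tested, and in bulk RNA fewer cells of a type and less RNA per cell cannot be told apart.

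**Figure D4:**
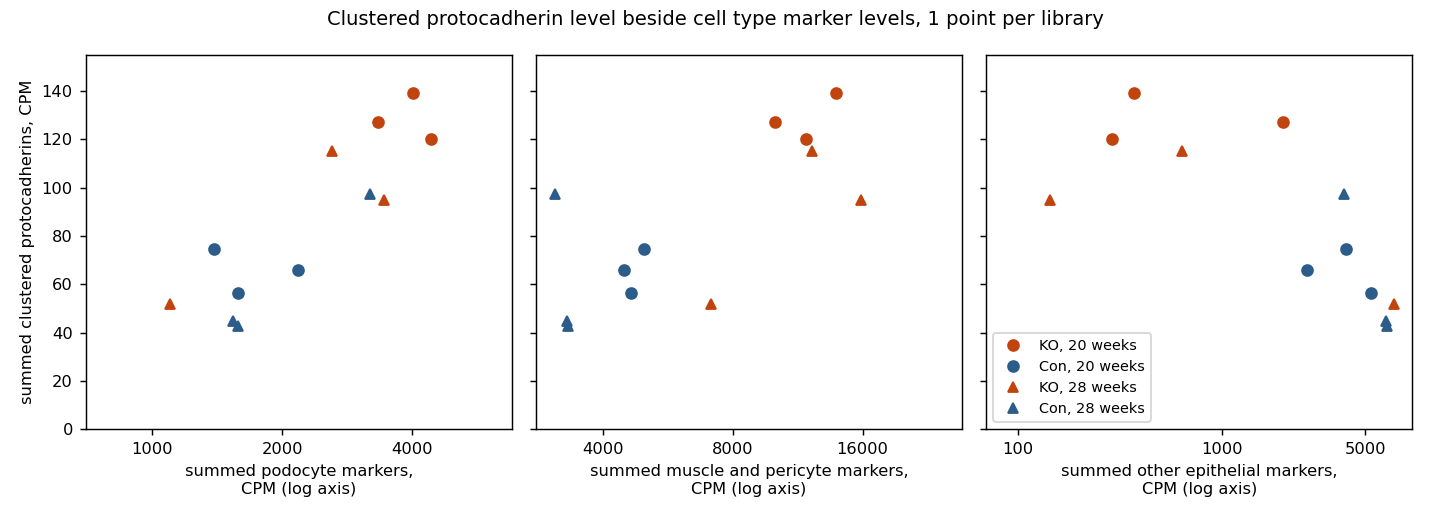
Summed clustered protocadherins in CPM (y axis) beside the summed markers of podocytes, of muscle and pericytes, and of other epithelium in CPM (x axes, log scale), with 1 point per library, circles for 20 weeks, triangles for 28 weeks, knockout in orange and control in blue. The 28-week knockout library with the lowest protocadherin sum, 51.7 CPM, has the fewest podocyte markers, 1100 CPM, and the most other epithelial markers, 6920 CPM.

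The second comparison put knockout against control libraries at 28 weeks. Here 3 of 33 tested members rose, all of them beta genes, and 0 fell, while of all 15011 tested genes 21.2% were called, 9.33% as risen and 11.9% as fallen. The members' share is close to the background of risen genes. The median log2 fold change was 1.18 over 12 tested beta genes (0.58 to 1.90) and 0.24 over 21 tested gamma genes (-0.38 to 1.60), beside 0.07 over all tested genes. Knockout libraries stood above all controls for 7 beta and 2 gamma genes, against 19.3% of all tested genes, and below all controls for 0 members, against 22.8%. Of these beta genes, Pcdhb9, Pcdhb11 and Pcdhb21 passed the count filter through their knockout libraries alone. That favours a rise in the beta count, range and median. Without a filter the beta median was 1.05 over 22 genes. By mean CPM, 18 of 22 listed beta genes, 16 of 21 gamma genes and 4 of 9 alpha genes were higher in knockout libraries. Of all 15011 tested genes, 8260 had a positive log2 fold change.

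Pcdhb11 had 0.564, 0.495 and 0.371 CPM in knockout libraries, against 0.128, 0.146 and 0.10 CPM in controls, and rose 3.73-fold (log2 1.90, SE 0.40, edgeR adjusted p = 0.0207). Pcdhb20 had 1.85, 4.09 and 2.91 CPM in knockout libraries, against 1.41, 0.927 and 0.828 CPM in controls, and rose 2.79-fold (log2 1.48, SE 0.39, adjusted p = 0.0411). Pcdhb21 had 0.690, 0.791 and 0.457 CPM in knockout libraries, against 0.230, 0.244 and 0.251 CPM in controls, and rose 2.64-fold (log2 1.40, SE 0.37, adjusted p = 0.0405). The groups did not overlap in any of these genes. Control reads of Pcdhb11 (5, 6 and 4) and Pcdhb21 (9, 10 and 10) were below the count filter. Both genes passed it through their knockout libraries alone, which favours a rise. Without a filter Pcdhb11 was called and Pcdhb21 was not. In the main test Pcdhb20 was the member called at both ages. That overlap depended on the test: DESeq2 and RLE scaling called Pcdhb20 and Pcdhb22 at both ages, limma on FPKM called Pcdhb20 and Pcdhb21, the model of 12 libraries called all 3 of them, and with no filter or the 1 CPM filter no member was called at both.

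Pcdhb22 and Pcdhb19 lay just outside the threshold, and Pcdhb14, called at 20 weeks, did not pass. Pcdhb22 had 3.01, 7.91 and 6.69 CPM in knockout libraries, against 2.92, 1.44 and 1.40 CPM in controls (log2 1.61, adjusted p = 0.0570). Pcdhb19 had 1.85, 2.34 and 2.11 CPM in knockout libraries, against 1.36, 0.854 and 0.978 CPM in controls (log2 0.98, adjusted p = 0.0592). Pcdhb14 had 2.01, 1.68 and 2.23 CPM in knockout libraries, against 1.66, 0.634 and 0.627 CPM in controls (log2 1.02, SE 0.46, adjusted p = 0.170). In each, knockout libraries were above all controls, and control library 1 was the highest control. Pcdhb5, which failed the filter, had 8, 21 and 22 reads in knockout libraries, against 1, 3 and 5 reads in controls, and was called where no filter was used.

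Other beta genes overlapped. Pcdhb17, the most abundant, had 3.20, 6.63 and 7.74 CPM in knockout libraries, against 6.27, 2.37 and 2.66 CPM in controls (log2 0.64, adjusted p = 0.423). Pcdhb16 had 1.29, 4.19 and 4.74 CPM in knockout libraries, against 2.74, 1.02 and 1.43 CPM in controls (log2 0.98, adjusted p = 0.296). In both, control library 1 was above knockout library 1, which lay within the range of the controls. Pcdhb7 had a log2 fold change of 1.11 (adjusted p = 0.231) and Pcdhb18 of 0.58 (adjusted p = 0.402). Pcdhb9 had 19, 10 and 13 reads in knockout libraries, against 10, 5 and 2 reads in controls (log2 1.58, adjusted p = 0.123), and its CPM did not overlap between the groups. Pcdhb13 was not tested, with 3, 1 and 13 reads in knockout libraries, against 15, 3 and 7 reads in controls.

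**Figure D5:**
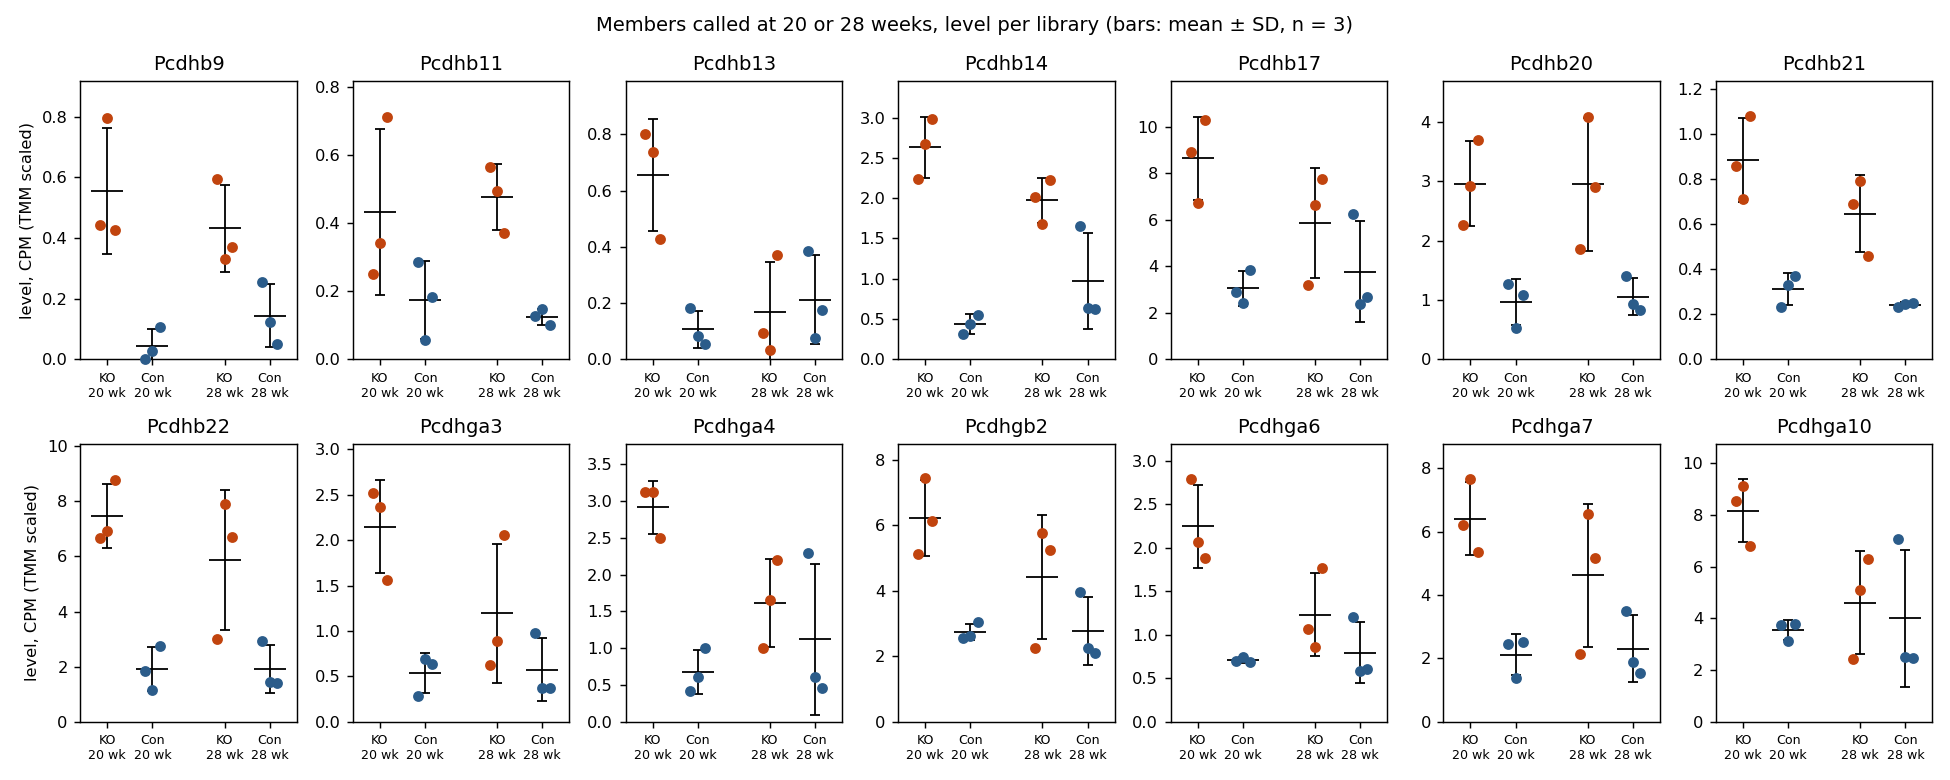
Level in CPM of the 14 members called at either age, with 1 point per library, knockout in orange and control in blue, and black bars for the mean ± SD of 3 libraries. Pcdhb14 lies at 2.24 to 2.99 CPM in knockout against 0.311 to 0.553 CPM in control libraries at 20 weeks. Pcdhga10 overlaps at 28 weeks, where control library 1 is the highest at 7.06 CPM.

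None of the 21 gamma genes was called at 28 weeks. Gamma genes other than Pcdhgc3 summed to 21.3, 40.4 and 51.7 CPM in knockout libraries, against 48.7, 21.1 and 18.7 CPM in controls. Pcdhgc3 had 12.7, 21.1 and 30.2 CPM in knockout libraries, against 28.2, 14.4 and 13.6 CPM in controls (log2 0.19, 95% interval -0.79 to 1.17, adjusted p = 0.790). Pcdhga10 had 2.41, 5.11 and 6.31 CPM in knockout libraries, against 7.06, 2.49 and 2.46 CPM in controls (log2 0.21, adjusted p = 0.836). In all 3 quantities knockout library 1 was low and control library 1 high, so the groups overlapped.

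The 6 gamma genes called at 20 weeks had 28-week log2 fold changes of 1.06 for Pcdhga3, 0.53 for Pcdhga4, 0.67 for Pcdhgb2, 0.63 for Pcdhga6, 1.00 for Pcdhga7 and 0.21 for Pcdhga10, with adjusted p between 0.218 and 0.836. Pcdhgc5 had the highest value of the gamma cluster, with 0.721, 0.330 and 0.714 CPM in knockout libraries, against 0.307, 0.171 and 0.10 CPM in controls (log2 1.60, SE 0.55, adjusted p = 0.0896). It was 1 of only 2 gamma genes whose groups did not overlap, the other being Pcdhga8. The lowest values were those of Pcdhga12, at -0.38 (adjusted p = 0.556), Pcdhga1, at -0.37 (adjusted p = 0.746), and Pcdhgb6, at -0.18 (adjusted p = 0.859). Pcdhgc4 had a log2 fold change of 0.79 (adjusted p = 0.277) and Pcdhgb4 of 0.49 (adjusted p = 0.436).

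Alpha genes stayed at the limit at 28 weeks, with 5, 12 and 18 reads over the cluster in knockout libraries, against 28, 13 and 10 reads in controls. Pcdha10 had 1, 10 and 10 reads in knockout libraries, against 4, 4 and 5 reads in controls. Pcdha9 had 2 reads over the knockout libraries and 16 over the controls, Pcdha12 had 4 and 12, and Pcdhac2 had 5 and 4. The groups overlapped in each of these genes.

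Single libraries decided the 28-week count. Without control library 2 the test called 0 of 38 tested members, beside 1288 of all 15283 tested genes. Without control library 3 it called 0 of 38 members (1266 of 15326 genes), and without knockout library 2 it called 0 of 34 (2057 of 15409). Without control library 1 it called 1 of 37 members, Pcdhb14 (1973 of 15395 genes). Without knockout library 3 it called 2 of 33 members (2851 of 15417 genes), and without knockout library 1 it called 4 of 38 (3374 of 15425). With control libraries 2 and 3 summed as 1 library, 0 of 38 members and 1299 of 15291 genes were called. The gamma median ran from -0.18 without knockout library 3 to 0.90 without control library 1.

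The libraries that overlapped also differed in cell type markers. At 28 weeks knockout library 1 had 1100 CPM of summed podocyte markers, against 3430 and 2610 CPM in knockout libraries 2 and 3, and control library 1 had 3190 CPM, against 1540 and 1580 CPM in control libraries 2 and 3. Of the 10 podocyte markers 1, Nphs1, fell, while 9.33% of all tested genes rose and 11.9% fell. Only 5 of the 10 had a positive log2 fold change (median -0.05), so the podocyte sum does not stand for every marker. Other epithelial markers, of which 3 of 8 fell, summed to 6920, 144 and 632 CPM in knockout libraries, against 3920, 6320 and 6400 CPM in controls. Muscle and pericyte markers summed to 7130, 15900 and 12200 CPM in knockout libraries, against 3110, 3300 and 3320 CPM in controls, with 5 of 10 risen, and fibroblast markers to 1240, 2160 and 2760 CPM in knockout libraries, against 1280, 471 and 481 CPM in controls, with 2 risen and 1 fallen. Leukocyte markers summed to 595 to 817 CPM in knockout and 67.4 to 82.8 CPM in control libraries, with 2 of 6 risen. Neuronal markers summed to 5.27 to 9.30 CPM in knockout and 3.38 to 7.39 CPM in control libraries. Glial markers summed to 4.11, 3.96 and 8.94 CPM in knockout libraries, against 82.8, 63.7 and 65.0 CPM in controls, most of it Mbp, which fell by 3.85 on the log2 scale (adjusted p = 0.00473). Endothelial markers, with 0 of 6 called, summed to 36.6 to 119 CPM in knockout and 81.1 to 82.0 CPM in control libraries. The part of these markers' cell types in the protocadherin values was not tested. The plot of protocadherin against marker sums shows all 12 libraries.

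Whether the knockout difference changed between the ages was tested in 1 edgeR model of all 12 libraries. The genes called were 0 of 15662, or 0%, and 0 of 37 tested members, with 1428 genes and 2 members at an unadjusted p below 0.05, while DESeq2 called 34 genes and 0 members. The 2 members were Pcdhb14, whose knockout difference was smaller at 28 weeks by a log2 value of -1.56 (SE 0.56, adjusted p = 0.538), and Pcdhb13, at -2.87 (SE 1.15, adjusted p = 0.538). The median over tested gamma genes was -0.85 and over tested beta genes -0.18, beside 0.05 over all genes. The 12 calls at 20 weeks and 3 at 28 weeks were therefore not shown to differ between the ages.

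The ages were also compared within each genotype, 28 against 20 weeks, in the same model. Age and any unlabelled difference in library preparation cannot be told apart. In knockout libraries 0% of genes and 0 members were called, with 1759 genes and 5 members at an unadjusted p below 0.05 (DESeq2 called 40 genes and 0 members). The 5 were Pcdhb13, Pcdhga2, Pcdhga6, Pcdhgb6 and Pcdhgb7, all lower at 28 weeks, with log2 values from -1.90 to -0.84 and adjusted p from 0.429 to 0.441. In control libraries 0% of genes and 0 members were called, with 466 genes and 2 members at an unadjusted p below 0.05 (DESeq2 called 1 gene and 0 members). Those were Pcdhb14, higher at 28 weeks by 1.18 (SE 0.41), and Pcdhb5, at -1.77 (SE 0.64), each with an adjusted p of 1. Control library 1 at 28 weeks, at 1.66 CPM of Pcdhb14, was the highest of the 6 controls.

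Known regulators of the clusters were next. Of 20 such genes (CTCF, cohesin subunits and loaders, DNA methyltransferases, Setdb1, Smchd1 and partners), 0 were called at 20 weeks by edgeR, beside 9.92% of all tested genes, with 1 at an unadjusted p below 0.05 and a median log2 fold change of 0.14. The lowest p-values there were those of Dnmt1, the maintenance DNA methyltransferase, at 0.56 (adjusted p = 0.182), and Dnmt3b, a de novo methyltransferase, at -0.68 (adjusted p = 0.228). At 28 weeks 4 of the 20 fell and 0 rose, beside 11.9% of all tested genes that fell. Smchd1, which represses clustered protocadherins in mice, had 28.5, 36.0 and 42.4 CPM in knockout libraries, against 69.8, 59.5 and 61.9 CPM in controls (log2 -0.84, adjusted p = 0.0185). At 20 weeks, where more members were called, its log2 fold change was 0.03 (edgeR adjusted p = 0.972). Wiz, a zinc finger partner of the H3K9 methyltransferases, had 24.4, 24.1 and 23.7 CPM in 28-week knockout libraries, against 64.8, 45.9 and 36.0 CPM in controls (log2 -1.02, adjusted p = 0.0220). Its 20-week log2 fold change was 0.16 (edgeR adjusted p = 0.846). Dnmt3b had 2.6, 1.48 and 1.91 CPM in 28-week knockout libraries, against 4.10, 4.51 and 4.42 CPM in controls (log2 -1.12, adjusted p = 0.0324), and Nipbl, the cohesin loader, had a log2 fold change of -0.51 (adjusted p = 0.0317). Knockout libraries lay below all controls in these 4 genes. They did so in 8 of the 20 regulators in all, beside 22.8% of all tested genes at 28 weeks. Ctcf itself had a log2 fold change of 0.15 at 20 weeks and -0.02 at 28 weeks. In the edgeR model of 12 libraries Dnmt3b was still called at 28 weeks (adjusted p = 0.0169). Smchd1 (adjusted p = 0.0994), Wiz (0.0508) and Nipbl (0.306) were not called in that model. Uhrf1, another of the 20, fell there (log2 -0.59, adjusted p = 0.0413).

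Of 18 partners of the protocadherin tails and their processing enzymes, 0 were called at 20 weeks by edgeR, beside 9.92% of all tested genes, with 4 at an unadjusted p below 0.05. The lowest were Cyfip2, a subunit of the WAVE complex, with a log2 fold change of -1.66 (adjusted p = 0.0623), and Prkca, a protein kinase C, with 0.61 (adjusted p = 0.0903). At 28 weeks 3 of the 18 fell and 1 rose, while 11.9% of all tested genes fell and 9.33% rose. Ptk2b, the kinase Pyk2, had 34.7, 22.1 and 43.5 CPM in knockout libraries, against 139, 115 and 116 CPM in controls (log2 -1.88, adjusted p = 0.00633). Cyfip2 fell by 2.98 (adjusted p = 0.00525) and Wasf1, another WAVE subunit, by 1.05 (adjusted p = 0.0184), while Brk1, a further subunit, rose by 0.50 (adjusted p = 0.0374).

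Protocadherins outside the clusters and flanking genes served as context. Of 8 tested nonclustered protocadherins 1 rose at 20 weeks, beside 4.79% of all tested genes, and this was Pcdh18, with 28.4, 20.4 and 24.8 CPM in knockout libraries, against 12.3, 14.6 and 11.5 CPM in controls (log2 0.94, adjusted p = 0.0269). Of 7 tested at 28 weeks Pcdh19 rose (log2 0.97, adjusted p = 0.0109) and Pcdh1 fell (log2 -1.19, adjusted p = 0.00749), while 21.2% of all tested genes were called. Of 14 tested genes that flank the clusters or lie between them 0 were called at 20 weeks by edgeR, beside 9.92% of all tested genes, with 0 at an unadjusted p below 0.05, a median of 0.05 and a range of -0.85 to 0.56. Arap3 and Rell2 had the lowest p-values, with log2 fold changes of -0.74 (adjusted p = 0.216) and -0.85 (adjusted p = 0.235). Taf7, which encodes a TFIID subunit and lies between the beta and gamma clusters, had 5.92, 4.09 and 6.45 CPM in 20-week knockout libraries, against 6.46, 6.09 and 6.30 CPM in controls. At 28 weeks 2 of the 14 rose and 1 fell, a share near the 21.2% of all tested genes that were called. Ndufa2 rose by 0.51 (adjusted p = 0.0162) and Hars by 0.39 (adjusted p = 0.0443). Diaph1, the formin gene that follows the gamma cluster, had 60.5, 68.0 and 71.5 CPM in knockout libraries, against 136, 115 and 115 CPM in controls, and fell by 0.87 (adjusted p = 0.00674).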

How the data were processed

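RNA was extracted with the RNeasy mini plus kit and libraries were made with the SMARTER mRNA-Seq kit, per the labels' protocols. For each age the authors deposited raw counts and FPKM per gene, in separate tables. The build was GRCm38 (mm10), per the submitters' processing notes. No label or header names the aligner, the counter, the annotation or whether strand was used. Deposited counts ranged from 31405349 to 38989180 per library, and every listed gene had at least 1 read. At each age, counts were filtered with filterByExpr, scaled by TMM and tested with edgeR 4.0.16 (quasi-likelihood F test, Benjamini-Hochberg adjustment over all tested genes, threshold 0.05). A gene "rose" or "fell" where its adjusted p was below 0.05. Each SE came from the fold change and the F statistic, as the ratio of its log2 size to sqrt(F), and intervals used the t distribution on the fit's degrees of freedom. CPM are TMM-scaled. Contrasts between ages used 1 edgeR model of 12 libraries over genes in both tables. Alternatives were RLE scaling, no filter, 1 CPM in 3 libraries, DESeq2 1.42.0, limma 3.58.1 on log2(FPKM + 0.1), a replicate block, control libraries 2 and 3 at 28 weeks summed, and each library left out. The scripts were tested on simulated data. Positions came from RefSeq GRCm38.p6 and shared exon bases from GENCODE M21.

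Named were Nsd2, every called member, the 4 most abundant of each cluster, the 3 highest and 3 lowest log2 fold changes per cluster and age, the C-type genes, and called genes of the context lists (or the 2 lowest p). Other genes named (Pcdhb5, Pcdhb1, Pcdhga8, Ctcf, Uhrf1, Taf7, Nphs1 and members at an unadjusted p below 0.05 between ages) were added after their values were seen. The members and the lists were chosen with earlier results of these data known.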

Additional observations from a re-analysis of the deposited data

How the results depend on the processing

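At 20 weeks the 12 called members were also called with RLE scaling, without a filter, by DESeq2 (16 called) and by limma on FPKM (14 called). Called members numbered 10 under the 1 CPM filter and 9 in the model of 12 libraries. Over all tested genes, RLE scaling called 1455 of 14853, limma 1833 of 14853 and the fit without a filter 1671 of 23829. The 1 CPM filter gave 1234 of 12986 and the model of 12 libraries 1742 of 15662. Leaving out each library in turn gave 1 to 11 called members and 517 to 2023 called genes (all libraries 1473), medians of 1.28 to 1.55 for beta genes and -1.01 to -0.72 for Nsd2, whose adjusted p of 0.0274 to 0.164 missed the threshold in 5 of the 6. DESeq2 called 2431 genes, limma gave medians of 0.89 (beta) and 0.75 (gamma), and Nsd2 under the 1 CPM filter was -0.93 with an adjusted p of 0.0562.

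At 28 weeks RLE scaling called 5 of 33 tested members, beside 3249 of all 15011 tested genes, and DESeq2 called 5 of 33 (4479 of 15011). The model of 12 libraries called 5 of 37 members (3091 of 15662 genes). Without a filter 2 of 52 members were called (2740 of 23777 genes), and under the 1 CPM filter 2 of 19 (3070 of 13070). Control libraries 2 and 3 summed gave 0 called members and 1299 called genes. Leaving out each library gave 0 to 4 called members, 1266 to 3374 called genes, and medians of 0.89 to 1.64 (beta) and -0.18 to 0.90 (gamma, turning sign). The beta median under limma was 0.69.

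Deviations of same-numbered libraries from their group means correlated at -0.08, 0.42 and -0.10 at 20 weeks and at -0.64, -0.18 and -0.58 at 28 weeks. Differently numbered libraries correlated at -0.46 to 0.46 and at -0.60 to 0.66. With 3 libraries per group these values cannot tell whether the replicate numbers pair the samples. With a replicate block, edgeR called 4 of 35 tested members and 1164 of all 14853 tested genes at 20 weeks. At 28 weeks it called 0 of 33 members and 332 of 15011 genes, and Nsd2 was -1.12 (adjusted p = 0.0526). For the change of the knockout difference between ages, no member was called by edgeR, by DESeq2, with the block or with any 1 of the 12 libraries left out. For 28 against 20 weeks within a genotype, none was called by edgeR, by DESeq2 or with any 1 library left out, and no blocked fit was run. The fits that left out libraries in the model of 12 and for summed cluster levels, and DESeq2 within a genotype, were chosen after seeing the data.

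Named members whose direction turned, none past the threshold, were at 20 weeks Pcdhga12 (0.00 with limma, -0.08 to 0.51 leaving out libraries) and Pcdhgc4 (-0.01 with limma and with 12 libraries, -0.26 to 0.46), and at 28 weeks Pcdhga1 (-0.92 to 0.49), Pcdhga10 (-0.05 with controls 2 and 3 summed, -0.12 to 0.90), Pcdhgb6 (-0.54 to 0.57) and Pcdhgc3 (-0.18 to 0.61). Of the summed cluster levels, which had no test, the 28-week alpha log2 ratio of -0.27 turned to 0.09 without knockout library 1 and 0.32 without control library 1, and the gamma ratio of 0.29 to -0.01 without knockout library 3. The cause of these changes was not tested. Depth limits the alpha cluster, at most 10 reads per gene and library, and the low beta genes.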
